A study of Mus musculus with 6 samples.

Results

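The 7 genes Rtraf, Anxa8, Tmem254a, Il17rd, Rpp14, Mustn1 and Ankrd28 lie on mouse chromosome 14 within 100 protein-coding genes of Ppif, the gene of cyclophilin D (CypD), and differed in signal between CypD knockout and wild-type fibroblasts. They are 7 of 7605 genes with a named and tested probe, and have 12 named probes among the 45281 probes on each array. The genes were chosen by their signal difference between the genotypes on these same arrays, so that difference is given below as a description, with no p-value. Mouse embryonic fibroblasts, the connective-tissue cells that grow out of minced embryos, had been established from E13.5 embryos on a C57BL/6 background. The wild-type group and the CypD knockout group had 3 Illumina bead arrays each, lettered A, B and C, with 250 ng of total RNA labelled with biotin per array. No treatment is named for either group, and nothing in the labels ties the letters to separate embryos or cultures, so the p-values rest on variation among arrays that may be no more than technical. How the knockout allele was made, and how many lines stand behind each group, is not stated in those labels.

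Genes that lie close together on a chromosome tend to be inherited together, so a deleted gene can be carried through crosses with some of its neighbours. Distance is counted here in genes, and whether this applies to the 7 genes was not tested. The 7 neighbours have varied jobs, and Rtraf and Rpp14 both act in the maturation of tRNA. Rtraf (formerly 2700060E02Rik) encodes an RNA-binding subunit of the tRNA ligase complex, which joins the ends of tRNA after their intron has been cut out. Rpp14 encodes a subunit of ribonuclease P, the enzyme that trims the 5′ end of tRNA precursors. Il17rd, also called Sef, encodes a membrane protein that restrains signalling from FGF receptors. Anxa8 belongs to the annexins, proteins that bind membranes in the presence of calcium. Mustn1 encodes a small nuclear protein of muscle, tendon and cartilage, and Ankrd28 a regulatory subunit of protein phosphatase 6 (PP6). Tmem254a encodes a small membrane protein.

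Median array signals lay between 223 and 251, and the correlation of log2 signals over all probes was 0.992 to 0.994 for arrays of the same group and 0.984 to 0.986 for arrays of different groups. The 11 tested fibroblast markers, which include the collagen genes Col1a1, Col1a2 and Col3a1, stood between the 57.2nd and 99.2nd percentile of all probes, with 3 called higher and 5 lower in knockout cells. Summed over the tested markers, the linear fibroblast signal was 78707 to 84092 on wild-type arrays and 68379 to 70754 on knockout arrays. The sums ran from 5581 to 6250 against 1764 to 1870 for the 3 tested neural markers (all 3 called lower). For the 3 tested epithelial markers they ran from 1372 to 1425 against 1822 to 1935, with 1 called higher, 1 lower and 1 not called. The 2 tested skeletal muscle markers gave 577 to 705 against 584 to 635, with 1 called lower and 1 not called. The 1 tested endothelial marker was called higher, and no tested leukocyte or erythroid marker was called. The part of these markers in the differences below was not tested. In such bulk RNA, fewer cells of a type and less RNA per cell cannot be told apart. Ppif itself had deposited intensities of 13524, 13569 and 12710 on the wild-type arrays and 4824, 5033 and 4626 on the knockout arrays. That is a log2 fold change of -1.37 ± 0.066 (standard error, SE; limma adjusted p = 2.96e-09), with the knockout signal still at the 93.6th percentile of probes. Where this probe lies relative to the deleted part is not stated. The lower signal therefore goes with the labels but does not show the deletion itself.

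Of the 7 genes, 2 were higher in knockout cells and 5 lower, by their brightest probes. Rtraf and Il17rd were higher. Anxa8, Tmem254a, Rpp14, Mustn1 and Ankrd28 were lower. The size of the difference ran from 1.52-fold for Ankrd28 to 5.47-fold for Anxa8, and 5 of the 7 differed at least 2-fold. The median log2 fold change was -0.78 and its median size 1.76, against 0.01 and 0.24 over all named genes. In all 7 the arrays of the groups did not overlap, a state that 56.1% of all named genes shared. By the test used throughout (limma, adjusted p under 0.05) 20.0% of all tested probes and 43.6% of named genes were called changed, and 6.07% were called and changed at least 2-fold. The rule that picked the 7 used this contrast, so nothing is read from their share. Within groups the signals of the brightest probes were tight, with SDs of 0.032 to 0.13 log2 units (median 0.096, against 0.11 over all named genes). Second probes reached 0.17, for Rtraf in wild type and Anxa8 in knockout. The genes were chosen on this contrast, so nothing is read from the comparison of SDs.

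**Figure D1:**
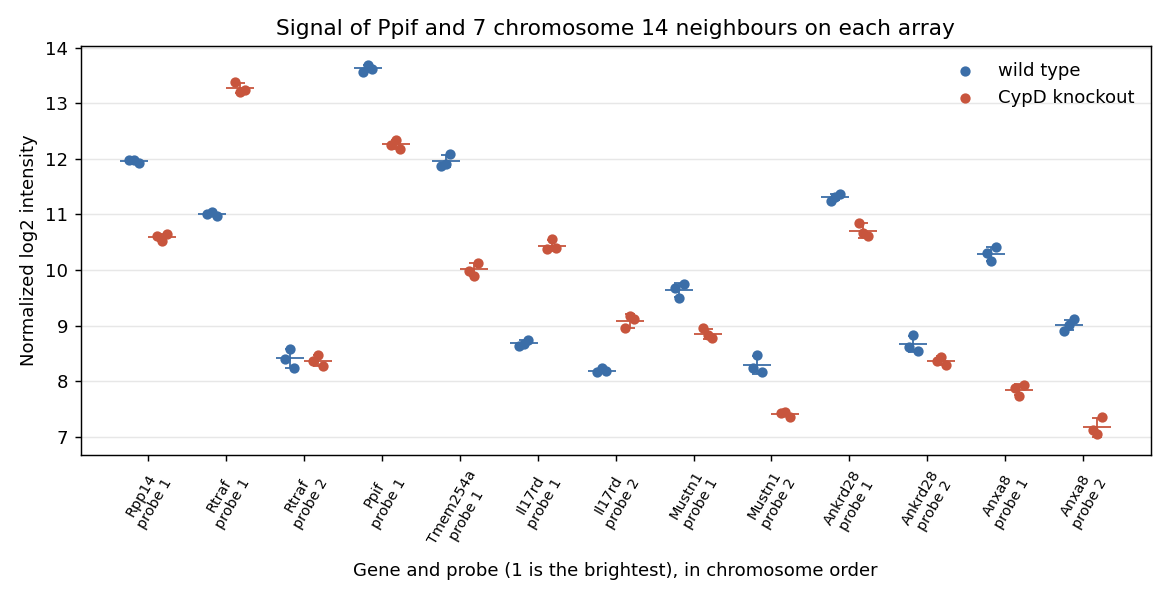
Normalized log2 intensity of each probe of Ppif and its 7 neighbours in chromosome order, with a point per array, and horizontal marks and bars for the mean and SD of 3 arrays (wild type blue, CypD knockout red). The brightest probe of every gene separates the groups, while probe 2 of Rtraf sits at 8.41 in wild type and 8.37 in knockout.

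Rtraf was the brighter of the 2 genes that were higher in knockout cells. Its brightest probe read 2357, 2226 and 2067 on wild-type arrays A, B and C and 10556, 9102 and 9447 on knockout arrays A, B and C. All 3 knockout arrays lay far above all 3 wild-type arrays. On the normalized scale the means were 11.01 ± 0.037 and 13.28 ± 0.093 (SD, n = 3 each), a log2 fold change of 2.27 ± 0.069 (SE), or 4.82-fold. The other Rtraf probe read 468, 488 and 376 in wild type and 423, 434 and 403 in knockout. That probe was dim, at about the 73rd percentile, and its groups overlapped, with a log2 fold change of -0.03 ± 0.11 (SE). The 2 probes of this gene gave different answers, and no source used here says which transcripts each of them reads.

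Rtraf overlaps its neighbour Nid2 in the RefSeq gene table (mouse assembly GRCm38.p6). Nid2 encodes nidogen 2, a basement membrane protein. Its normalized signal was 9.74, 9.54 and 9.66 on wild-type arrays and 11.92, 11.92 and 11.84 on knockout arrays. The log2 fold change of Nid2 was 2.25 ± 0.079 (SE; limma adjusted p = 1.03e-10), close to that of the bright Rtraf probe. On the other side of Rtraf, Gng2, a G protein subunit, had a log2 fold change of -0.24 ± 0.083 by its brightest probe and was not called (limma adjusted p = 0.0589). Gng2 passed in the authors' processed table (adjusted p = 0.0486), with the stricter filter on dim probes at the 70th percentile (0.0342) and with median scaling (0.0457). The start of Rtraf faces away from Nid2, so that the genes do not share a promoter window. The 250 bases before that start are shown because Rtraf is one of the genes with higher signal. Capitals mark the CCAAT box (CCAAT, or ATTGG on the other strand) and the GC box (GGGCGG, or CCGCCC on the other strand). The sequence is from RefSeq, build GRCm38.p6, 5′ to 3′ along the gene.
Rtraf, chr14:19823824-19824073, minus strand: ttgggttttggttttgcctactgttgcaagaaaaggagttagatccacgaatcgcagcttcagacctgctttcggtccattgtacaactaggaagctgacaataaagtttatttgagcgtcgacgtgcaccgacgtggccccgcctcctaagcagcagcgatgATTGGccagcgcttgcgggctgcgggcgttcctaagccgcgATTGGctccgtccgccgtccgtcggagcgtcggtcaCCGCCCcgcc
This window holds 25 CpG dinucleotides, more than 89.3% of 32851 RefSeq windows of the same length. It has 2 CCAAT boxes and 1 GC box, motifs present in 33.8% and 32.7% of those windows. Such a match is a description of the letters.

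Of the 7 genes of the tRNA ligase list, 2 had a tested probe with a name, and they went opposite ways. Pyroxd1, which protects the ligase from oxidation, rose by 0.58 ± 0.079 on the log2 scale (SE; limma adjusted p = 8.85e-05). Fam98a, a subunit of the complex, fell by 0.36 ± 0.068 on the log2 scale (limma adjusted p = 0.00177). The catalytic subunit Rtcb and the helicase Ddx1 had no tested probe with a name.

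Il17rd was the other gene with higher signal in knockout cells. Its brightest probe read 529, 513 and 496 in wild type and 1403, 1527 and 1428 in knockout. The normalized means were 8.68 ± 0.057 and 10.44 ± 0.099 (SD, n = 3 each), a log2 fold change of 1.76 ± 0.087 (SE), or 3.38-fold. Its second probe read 411, 405 and 365 against 586, 642 and 648. The groups were again apart, with a smaller log2 fold change of 0.89 ± 0.095 (SE). The window before its start is shown for comparison with that of Rtraf, with capitals for the same motifs.
Il17rd, chr14:27038751-27039000, plus strand: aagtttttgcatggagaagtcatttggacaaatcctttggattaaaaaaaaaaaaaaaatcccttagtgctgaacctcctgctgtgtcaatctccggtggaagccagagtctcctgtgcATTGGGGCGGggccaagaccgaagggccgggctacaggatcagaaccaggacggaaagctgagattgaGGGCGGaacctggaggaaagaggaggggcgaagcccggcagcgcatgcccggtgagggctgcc
It holds 10 CpG dinucleotides, against a median of 6 over all windows, with 2 GC boxes and 1 CCAAT box that overlaps the first GC box.

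Several genes of the FGF pathway, which Il17rd restrains, were higher in knockout cells. Dusp4, a phosphatase that switches off MAP kinases, rose 4.14-fold. Its means were 8.73 ± 0.14 in wild type and 10.78 ± 0.052 in knockout (SD, n = 3 each), a difference of 2.05 ± 0.091 (SE; limma adjusted p = 1.3e-09), against 1.52 and 0.58 by its other probes. Dusp6, a phosphatase specific for ERK, rose 1.46-fold (limma adjusted p = 7.77e-06), with 0.75 and 0.57 on the log2 scale for its other probes. The ETS transcription factors Etv1 and Etv5 rose 2.06-fold and 1.38-fold (limma adjusted p = 2.53e-05 and 0.00246), each by its brightest probe. The second Etv5 probe did not pass (0.16, limma adjusted p = 0.414). The wild-type signals of Etv1 and Etv5 lay at the 45.5th and 68.9th percentile, where background cannot be separated from expression. The Etv1 difference was under 2-fold without background correction and in the authors' processed table (0.69 on the log2 scale for each). The receptor genes Fgfr2 and Fgfrl1 rose by 0.30 and 0.41 on the log2 scale (limma adjusted p = 0.00373 and 0.00667). The receptor gene Fgfr4 and the feedback gene Spry4 had 0.15 and -0.05 and were not called (limma adjusted p = 0.652 and 0.865). The list also takes in IL-17 receptors, of which Il17rc was tested and not called (-0.09, limma adjusted p = 0.656). Of 11 tested genes in this list, 6 rose, 0 fell and 5 did not pass. The median log2 fold change was 0.30 against 0.01 over all named genes, of which 21.8% were called higher and 21.8% lower. The list was chosen with earlier results of these data known, so nothing is read from these counts. Etv4 and the ERK pathway inhibitor Spred1 had log2 fold changes of 0.09 ± 0.11 and -0.04 ± 0.084 and were not called (limma adjusted p = 0.682 and 0.804). The sign of the Spred1 value changed when wild-type array A or knockout array C was left out.

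**Figure D2:**
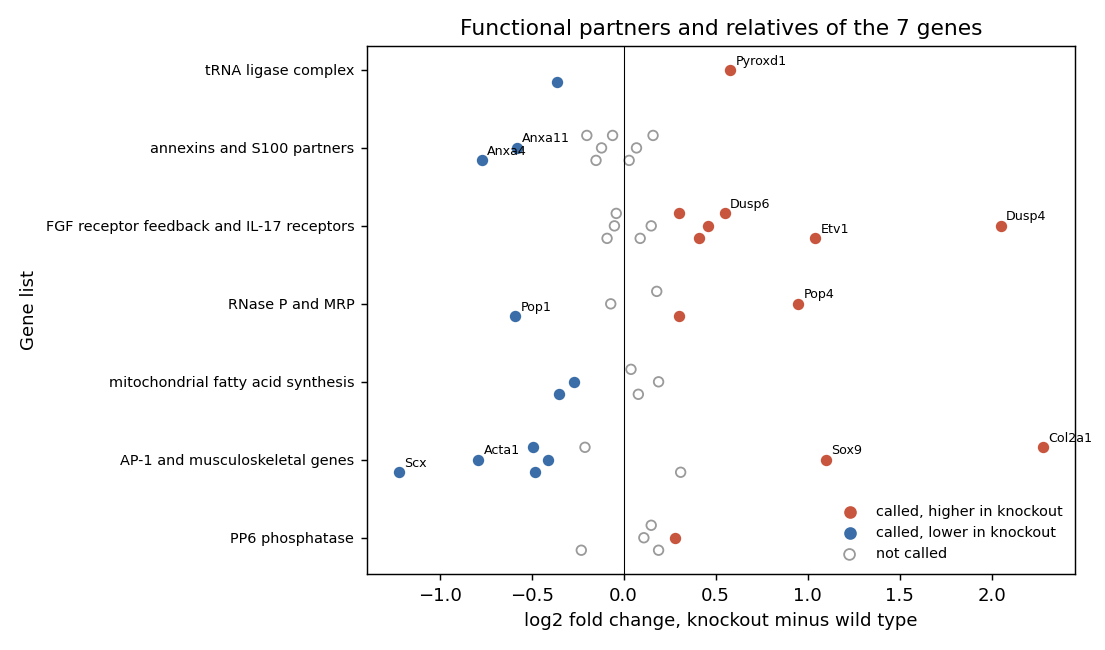
Log2 fold change (knockout minus wild type) of each tested functional partner or relative of the 7 genes, by list, with filled points for genes called higher (red) or lower (blue) and open points for genes not called. In the list of FGF receptor feedback genes and IL-17 receptors 6 of 11 points are red and 0 are blue. The lists were chosen with earlier results of these data known.

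Tmem254a lies 4 genes from Ppif, the nearest of the 7. Its only named probe read 4216, 3990 and 4427 in wild type and 1101, 1008 and 1203 in knockout. Every knockout array was far below every wild-type array. The normalized means were 11.96 ± 0.11 and 10.01 ± 0.11 (SD, n = 3 each), a log2 fold change of -1.96 ± 0.085 (SE), or 3.88-fold lower. Tmem254a has close copies a few genes further along, Tmem254c and Tmem254b, and neither had a tested probe with a name. RefSeq gives Tmem254a and Tmem254c the same 300 bases around their upstream start, and Tmem254b shares an unbroken run of 284 of its 300. The probe may therefore read several copies, which cannot be told apart here. The shared upstream sequence is shown as it stands for Tmem254a.
Tmem254a, chr14:25927673-25927922, minus strand: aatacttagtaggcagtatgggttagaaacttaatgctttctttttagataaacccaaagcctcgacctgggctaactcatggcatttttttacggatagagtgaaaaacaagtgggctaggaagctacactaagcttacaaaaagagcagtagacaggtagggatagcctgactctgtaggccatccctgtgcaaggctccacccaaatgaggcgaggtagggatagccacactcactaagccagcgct
It holds 4 CpG dinucleotides and none of the motifs marked in the other windows. A downstream start of the same gene has a window with 21.

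The measured genes beside Tmem254a were lower as well. Anxa11, an annexin on the side of Ppif, fell by 0.58 ± 0.094 on the log2 scale (SE; limma adjusted p = 0.00044). Gm9780, a predicted gene among the copies, fell by 0.97 ± 0.10 (SE; limma adjusted p = 1.15e-05), with means of 7.79 ± 0.11 in wild type and 6.83 ± 0.026 in knockout (SD, n = 3 each). Its knockout signal was at the 35.3rd percentile, so this difference is uncertain in size. Beside Ppif itself, Zmiz1, a transcriptional coregulator, fell by 1.07 ± 0.15 by its brighter probe (SE; limma adjusted p = 0.000161), while the dim second probe gave 0.07 (limma adjusted p = 0.804). The knockout signal of the brighter Zmiz1 probe was at the 65.8th percentile, where background cannot be separated from expression. Its difference was under 2-fold without background correction (-0.81), in the authors' processed table (-0.82) and without wild-type array A or knockout array B (-0.92 for each). On the other side Zcchc24, a zinc finger gene, had a log2 fold change of 0.19 ± 0.067 and was not called (limma adjusted p = 0.0619), but it passed with the stricter filter on dim probes (adjusted p = 0.0445) and without knockout array A (0.24, adjusted p = 0.0462).

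Anxa8 had the largest fold of the 7 from the background-corrected values, while without that correction Rtraf did (log2 fold changes of -2.06 for Anxa8 and 2.22 for Rtraf). Its brightest probe read 1463, 1261 and 1414 in wild type and 327, 298 and 332 in knockout. The knockout readings were not far above the array medians of 226 to 229. The normalized means were 10.29 ± 0.12 and 7.84 ± 0.10 (SD, n = 3 each), a log2 fold change of -2.45 ± 0.097 (SE). The second probe read 623, 624 and 615 against 230, 220 and 255, with a log2 fold change of -1.84 ± 0.11 (SE). The groups were apart by both probes. In the authors' processed table, which has no visible background correction, the folds of Anxa8 were smaller, at 4.19 and 2.58, against 5.47 and 3.57 from the corrected values, and that of the bright Rtraf probe was 4.65. The knockout signals stood at the 68th and 53.3rd percentile, where background cannot be separated from expression.

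Most other annexins did not pass. Anxa4 fell 1.71-fold, with means of 11.76 ± 0.093 in wild type and 10.99 ± 0.11 in knockout (SD, n = 3 each; limma adjusted p = 7.5e-06). Together with Anxa11 it made 2 falls and 0 rises among 9 tested annexins and S100 partners, with 7 that did not pass. The list median was -0.12, and 22.2% were called against 43.6% of all named genes. The bright Anxa5, a phosphatidylserine-binding protein, had a log2 fold change of 0.16 ± 0.074 (limma adjusted p = 0.172). S100a10, the partner of annexin A2, had -0.15 ± 0.073 (limma adjusted p = 0.189) and passed without wild-type array B (-0.22, adjusted p = 0.0458). Of the genes measured around Anxa8, Mapk8, the kinase JNK1, had a log2 fold change of 0.27 ± 0.087 (limma adjusted p = 0.0426) and Glud1, glutamate dehydrogenase, of -0.21 ± 0.067 (limma adjusted p = 0.0377). The Mapk8 call was lost without an intensity trend (adjusted p = 0.0699), with median scaling (0.0546), without the filter on dim probes (0.0608), without wild-type array A, B or C (adjusted p = 0.0818, 0.0878 and 0.068) and without knockout array A or B (0.0789 and 0.197). The Glud1 call was lost without an intensity trend (adjusted p = 0.138), without wild-type array A or B (adjusted p = 0.132 and 0.146) and without knockout array A, B or C (0.109, 0.11 and 0.0721). Second probes of Mapk8 and Glud1 gave -0.17 and -0.05 and did not pass (limma adjusted p = 0.35 and 0.845).

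Rpp14 lies 85 genes before Ppif. Its only named probe read 4499, 4182 and 3944 in wild type and 1628, 1500 and 1669 in knockout. The groups were far apart and tight. The normalized means were 11.96 ± 0.032 and 10.59 ± 0.059 (SD, n = 3 each), a log2 fold change of -1.37 ± 0.07 (SE), or 2.58-fold lower. RefSeq places Htd2, a dehydratase of mitochondrial fatty acid synthesis, on the same span as Rpp14, with an identical promoter window of 300 bases. A probe in sequence that both transcripts hold would read both, and the position of the probe is not known here. The shared window is shown because it belongs to both genes.
Rpp14, chr14:8080063-8080312, plus strand: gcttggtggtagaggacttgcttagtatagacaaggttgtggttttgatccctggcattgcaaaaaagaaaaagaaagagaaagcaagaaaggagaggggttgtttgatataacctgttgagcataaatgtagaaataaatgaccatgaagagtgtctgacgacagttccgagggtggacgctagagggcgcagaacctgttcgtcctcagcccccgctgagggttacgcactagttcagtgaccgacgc
It holds 9 CpG dinucleotides, more than 59.7% of all windows, and neither of the marked motifs. On either side of Rpp14, Abhd6, a lipase, had a log2 fold change of -0.03 ± 0.13 (limma adjusted p = 0.921), and changed sign without wild-type array C or knockout array B. Pdhb, a subunit of pyruvate dehydrogenase, had -0.11 ± 0.081 by its brightest probe (limma adjusted p = 0.431), while its second probe fell by 0.94 (limma adjusted p = 3.43e-06).

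The relatives of Rpp14 moved in both directions. Pop4, a core subunit of ribonuclease P, rose 1.93-fold, with means of 13.21 ± 0.069 in wild type and 14.16 ± 0.045 in knockout (SD, n = 3 each; limma adjusted p = 3.55e-08). Pop1, its largest protein subunit, fell by 0.59 ± 0.088 on the log2 scale (SE; limma adjusted p = 0.000246). Of 5 tested subunits of ribonuclease P and MRP, 2 rose, 1 fell and 2 did not pass, with a median log2 fold change of 0.18. The other rise, that of Rpp25l (0.30, limma adjusted p = 0.0212), was lost with median scaling (0.0936), without an intensity trend (0.0718), without wild-type array A or B (adjusted p = 0.0571 and 0.0966) and without knockout array C (0.112). Pop5 and Rpp21 had log2 fold changes of -0.07 and 0.18 and were not called (limma adjusted p = 0.552 and 0.0601). Pop5 turned to 0.01 without wild-type array A, and Rpp21 passed with the stricter filter on dim probes (adjusted p = 0.0388). In mitochondrial fatty acid synthesis, the pathway of Htd2, 0 of 5 tested genes rose, 2 fell and 3 did not pass. Mecr, the reductase of the last step, fell by 0.35 ± 0.076 on the log2 scale (limma adjusted p = 0.00488). Mcat, the malonyl transferase, fell by 0.27 (limma adjusted p = 0.0255), a call lost without an intensity trend (adjusted p = 0.0752), without wild-type array B or C (0.0564 and 0.0675) and without knockout array B or C (0.123 and 0.0739), and its other probe gave 0.11 (limma adjusted p = 0.677). The acyl carrier protein gene Ndufab1 and the lipoate synthase gene Lias had log2 fold changes of 0.08 and 0.04 and were not called (limma adjusted p = 0.523 and 0.824). The sign of the Lias value changed with median scaling and without wild-type array A or knockout array C.

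Mustn1 was lower by both of its probes. The brighter probe read 986, 836 and 927 in wild type and 589, 526 and 532 in knockout, and the other 428, 460 and 359 against 263, 261 and 255. The groups were apart by both, and the knockout readings of the dim probe were near the array medians. The normalized means of the brighter probe were 9.64 ± 0.12 and 8.85 ± 0.092 (SD, n = 3 each). The log2 fold changes were -0.78 ± 0.095 and -0.88 ± 0.11 (SE). The window before its start is shown because it is the poorest in CpG among the 7 genes.
Mustn1, chr14:30879007-30879256, plus strand: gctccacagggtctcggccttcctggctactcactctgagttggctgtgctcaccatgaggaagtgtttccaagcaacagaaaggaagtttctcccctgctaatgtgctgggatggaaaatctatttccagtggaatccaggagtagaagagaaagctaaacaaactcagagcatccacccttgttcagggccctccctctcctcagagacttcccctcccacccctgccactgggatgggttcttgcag
It holds 1 CpG dinucleotide, and 7.87% of all windows hold fewer. The AP-1 site TGANTCA, the same on both strands, was not in these 250 bases, nor in those of the other 6 genes. It was present in 6.75% of all windows. AP-1 is the factor made of Jun and Fos proteins, known to act on the Mustn1 promoter.

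Among AP-1 and musculoskeletal genes, 9 had a tested probe, of which 2 rose, 5 fell and 2 were not called. The median log2 fold change was -0.41, and 77.8% were called against 43.6% of all named genes. Junb fell by 0.48 ± 0.07 on the log2 scale (SE; limma adjusted p = 0.000168), and Jun and Jund were also among the falls. Fos had a log2 fold change of 0.31 ± 0.12 and was not called (limma adjusted p = 0.102), but it passed without wild-type array C (0.39, adjusted p = 0.0326). Fosb had -0.21 ± 0.18 (limma adjusted p = 0.513). Scx, the tendon transcription factor, fell by 1.22 ± 0.11 (limma adjusted p = 1.17e-06), while the cartilage genes Col2a1 and Sox9 rose 4.87-fold and 2.14-fold (limma adjusted p = 8.72e-10 and 2.24e-07). The skeletal actin gene Acta1 was the other fall. The knockout signals of Acta1 and Jund lay at the 42.5th and 66th percentile, where background cannot be separated from expression. Next to Mustn1 on the chromosome, Stimate, an activator of calcium entry, had a log2 fold change of 0.34 ± 0.093 (limma adjusted p = 0.0198). That call was lost with median scaling (0.059), without an intensity trend (0.0546), without wild-type array B (adjusted p = 0.0847) and without knockout array A or C (0.061 and 0.0817). Itih3, a hyaluronan-binding inhibitor on the other side, had -0.32 ± 0.13 (limma adjusted p = 0.122) and passed without wild-type array B (-0.45, adjusted p = 0.0317).

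Ankrd28 showed the smallest difference. Its brightest probe read 2742, 2681 and 2699 in wild type and 1907, 1635 and 1639 in knockout. The normalized means were 11.31 ± 0.058 and 10.71 ± 0.13 (SD, n = 3 each), a log2 fold change of -0.60 ± 0.082 (SE), or 1.52-fold lower. The dim second probe read 524, 567 and 445 against 422, 427 and 406, which leaves a narrow gap between the groups, and its log2 fold change was -0.30 ± 0.10 (SE). The promoter window of Ankrd28 held 37 CpG dinucleotides, more than 97.8% of all windows, and 3 GC boxes. Of 5 tested genes of the PP6 phosphatase and related ankyrin repeat proteins, 1 rose, 0 fell and 4 did not pass, by their brightest probes. That is 20.0% called, against 43.6% of all named genes. The rise was that of Ankrd17 (0.28, limma adjusted p = 0.0217), which was lost without an intensity trend (adjusted p = 0.0625), without wild-type array C (0.0563) or knockout array B (0.112), and its other probes did not pass. The regulatory subunits Ppp6r3 and Ppp6r1 had log2 fold changes of 0.11 and -0.23 and were not called (limma adjusted p = 0.58 and 0.174). Another Ppp6r3 probe passed at 0.30 (limma adjusted p = 0.0157), the Ppp6r3 value turned to -0.01 without knockout array C, and Ppp6r1 passed without wild-type array A (-0.35, adjusted p = 0.042). Ppp6r2 had 0.19 by its brightest probe and was not called (limma adjusted p = 0.367), while its second probe fell by 0.46 (limma adjusted p = 0.00848). The genes measured beside Ankrd28, Btd (biotinidase) and Galnt15 (a glycosyltransferase), had -0.15 ± 0.12 and -0.06 ± 0.14 and were not called (limma adjusted p = 0.49 and 0.85). Galnt15 changed sign without wild-type array C or knockout array C.

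**Figure D3:**
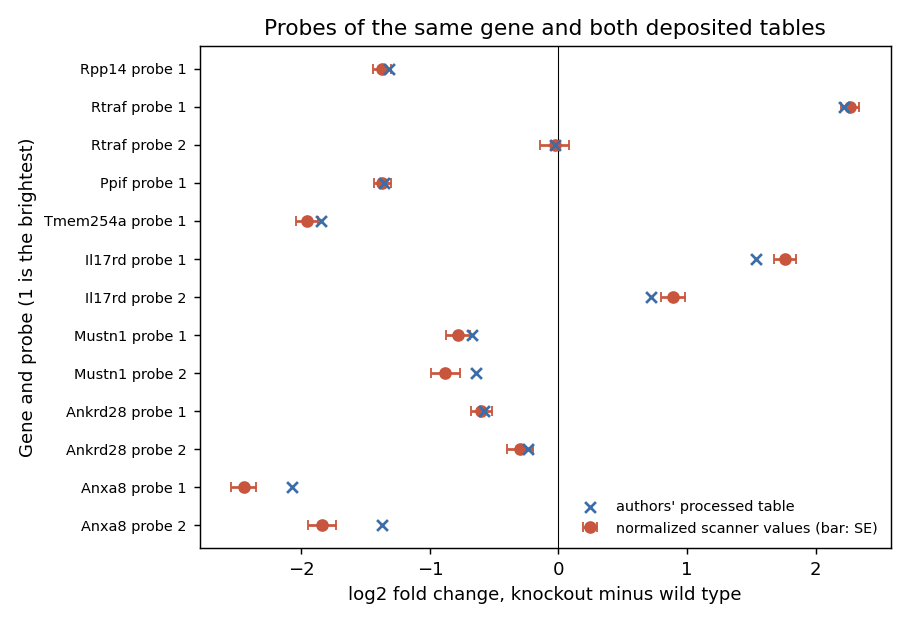
Log2 fold change (knockout minus wild type) for each probe of Ppif and the 7 genes, from normalized scanner values with SE bars (red) and from the authors' processed table (blue crosses). Paired probes lie on the same side of 0 for Il17rd, Mustn1, Ankrd28 and Anxa8, while those of Rtraf lie at 2.27 and -0.03.

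Across the 8 lists together, 23 of 46 tested genes were called, 12 higher and 11 lower. Among all named genes 43.6% were called. The Tmem254 list had no tested gene.

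The 7 genes stood among many neighbours that were measured. Of 200 protein-coding genes within 100 on each side of Ppif, 81 had a named and tested probe. Of these, 16 were higher, 22 lower and 43 not called, so that 46.9% were called against 43.6% of all named genes. The share called at least 2-fold was 11.1%, or 9 genes, against 6.07%. With the 7 genes left out, 31 of 74 were called (41.9%) and 4 at least 2-fold (5.41%). The 4 were Nid2, Zmiz1 (under 2-fold in the settings named above), Wnt5a and Arhgap22, the last pair named after their values were seen. Wnt5a, a Wnt ligand 28 genes after Ppif, fell by 2.59 ± 0.083 on the log2 scale (SE; limma adjusted p = 4.39e-11), with -1.98 for its other probe. Arhgap22, a GTPase activator of Rac 87 genes after Ppif, fell by 2.58 ± 0.084 (SE; limma adjusted p = 4.8e-11). Both differences were larger than that of any of the 7 on the background-corrected scale. The genes are thus not the full set of changed neighbours: 7 other called neighbours differed by more than Ankrd28, namely these 4 with Gm9780, Arhgef3 and Erc2. Arhgef3, next to Il17rd, fell by 0.71 ± 0.08 (SE; limma adjusted p = 1.76e-05), opposite to Il17rd, and Appl1, an endosomal adaptor on its other side, had 0.09 ± 0.082 (limma adjusted p = 0.533). With the 7 genes left out, 4 of the 6 measured genes within 10 places of Ppif were called, all 4 lower, namely Rps24, Zmiz1, Anxa11 and Gm9780. Rps24, a ribosomal protein gene named after its values were seen, fell by 0.26 ± 0.079 on the log2 scale (SE; limma adjusted p = 0.0334). Over wider bands, again without the 7, 40.7% of 27 genes 1 to 50 places before Ppif and 45.5% of 22 after it were called. Further out, up to 100 places, 6 of 10 were called before Ppif and 4 of 15 after it. These counts were not tested against each other or against the 43.6% of all named genes.

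**Figure D4:**
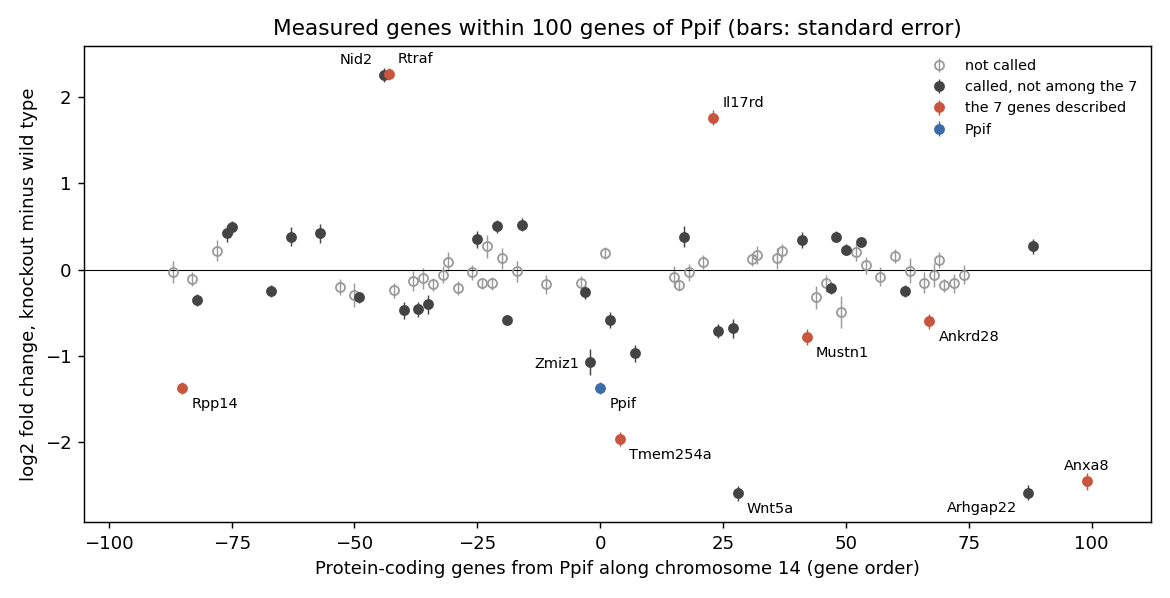
Log2 fold change (knockout minus wild type, bars are SE) of the 81 measured neighbours and Ppif against their place in the order of protein-coding genes, with the 7 genes in red, Ppif in blue, other called genes filled dark and genes not called open. The large differences lie scattered from 85 genes before to 99 genes after Ppif, in both directions, with Nid2 and Rtraf side by side at the top.

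Chromosome 14 as a whole leaned downward in the knockout arrays. Of 183 tested protein-coding genes beyond 100 genes from Ppif, 18 were higher and 61 lower, with a median log2 fold change of -0.15, against 0.02 on other chromosomes. Within 100 genes the median was -0.10. The median deviation of these 183 genes from the wild-type mean was -0.16, -0.18 and -0.14 on knockout arrays A, B and C and 0 to 0.02 on wild-type arrays. Other chromosomes leaned too, in both directions. Chromosomes 18 and 15 had medians of -0.35 and -0.30, with 140 of 216 and 210 of 362 genes called lower, and chromosome 6 had the highest median at 0.17, with 147 of 395 called higher. Chromosome 13 stood at -0.15 like chromosome 14. The rest of chromosome 14 stayed at -0.14 to -0.19 without background correction, with median scaling and with cyclic loess. These shifts of whole chromosomes are smaller than the difference of each of the 7 genes by its brightest probe, and their part in those differences was not tested.

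**Figure D5:**
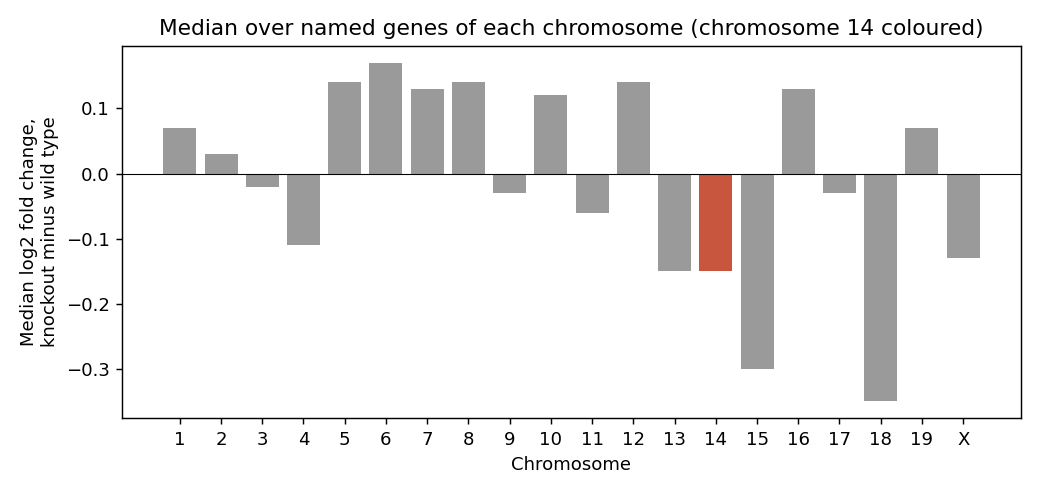
Median log2 fold change (knockout minus wild type) over the named and tested genes of each chromosome, as bars from 0, with chromosome 14 in red. Chromosome 14 lies at -0.15, between chromosome 18 at -0.35 and chromosome 6 at 0.17.

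The genes whose pattern over the 6 arrays was most like that of a member lay on other chromosomes. Chromosome 14 holds only 268 of the 7605 named genes, so nothing is read from where they lie. Likeness was the root mean square difference of centred log2 intensities, over 7604 other genes. Rtraf was nearest to En1, a homeobox gene, and Car13, a carbonic anhydrase, both at 0.067 log2 units. Il17rd was nearest to Rgma, a guidance and BMP coreceptor (0.043), and Gli2, a transcription factor of the hedgehog pathway (0.045). Tmem254a was nearest to Mrgprf (0.044) and the Wnt ligand Wnt10b (0.075), and Anxa8 to the histone gene H2bc4 (0.076) and the chemokine Ccl9 (0.11). Rpp14 was nearest to Eri1, an exonuclease (0.037), and Rcan2, a calcineurin regulator (0.044). Mustn1 was nearest to Tmeff2 (0.049) and the histone gene H2ac8 (0.051), and Ankrd28 to the kinase Dyrk3 (0.046) and the interferon-induced Oasl1 (0.049). Since the groups differ in the members by choice, the likeness mainly ranks genes by a similar difference between groups.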

How the data were processed

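The authors deposited linear intensities for each array, as a probe identifier and a value per the file headers, and a processed intensity table of 12534 probes. BeadStudio 3.0 is named in the submitters' processing notes; no other step is stated in the labels. In limma 3.58.1 (R 4.3.3), intensities were corrected with normexp (offset 50), log2 transformed and quantile normalized. The 27168 probes with a mean above the 40th percentile were tested with lmFit and eBayes (intensity trend), with two-sided Benjamini-Hochberg adjusted p-values over all of them; 5423 (20.0%) were called at 0.05. The offset compresses folds of dim probes, but with it the corrected folds can still exceed the uncorrected ones. For Gm9780 the log2 fold change was -0.97 with the correction and -0.60 without it. The number of arrays limits the precision.

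Gene names came from the platform annotation, which gave 1 symbol for 10653 probes of the processed table, several for 5 and none for 1876, and 10643 were matched to RefSeq by Entrez identifier. Probes outside that table are unnamed here. Every probe in it varied at least 1.2-fold over the arrays, so it is not a random share of the array. A gene is represented by its brightest tested probe, and gene order follows GRCm38.p6, whose coordinates are used only for the printed promoter windows. The members and lists were chosen with earlier results of these data known. Named genes were the members, Ppif, the nearest measured gene on each side, up to 4 called and 2 uncalled genes per list, and the 2 genes most alike. Outside this rule, Fgfr2, Fgfrl1, Fgfr4, Spry4, Il17rc, Jun, Jund, Acta1, Ppp6r2, Wnt5a, Arhgap22, Erc2, Rps24 and the collagen markers were also named. The procedure was tested on simulated data. Alternatives changed the background correction, normalization, filter, variance trend, probe, replicate block and arrays used. Same-letter arrays deviated together at 0.10, -0.09 and 0.08, so the letters were not taken as pairs.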

Additional observations from a re-analysis of the deposited data

How the results depend on the processing

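Ppif had log2 fold changes of -1.44 to -1.33 under the 16 alternatives. Those of the 7 genes, which were chosen on this contrast, are given as ranges only. They ran from 2.21 to 2.30 for Rtraf, 1.54 to 1.85 for Il17rd, -2.64 to -2.06 for Anxa8, -2.01 to -1.85 for Tmem254a, -1.41 to -1.32 for Rpp14, -0.88 to -0.67 for Mustn1 and -0.67 to -0.55 for Ankrd28. Between 28 and 40 neighbours of Ppif, 20 to 24 related genes and 4083 to 5897 probes were called. With the replicate block, 5273 probes, 38 neighbours and 24 related genes were called, and Fos passed (0.31, limma adjusted p = 0.0348). Median scaling called 2283 probes higher and 3119 lower, against 2656 and 2767.

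Genes named outside the rule, other than Wnt5a and Arhgap22, and the genes most alike were not followed under the alternatives. Apart from Ppif, 54 named genes, including the 7, had 859 values under them. Of these, 800 kept their direction and call, 34 lost a call, 12 gained one and 13 changed sign, and the cause was not tested. Each of the 7 genes kept its direction and call under all 16 alternatives, but they were chosen on this contrast. Some of the other genes were named because they were called. The 800 is therefore no measure of stability. The values that changed sign concern genes that were not called, apart from Mcat. By the probe of highest variance Gng2 gave 0.18 and Mcat 0.11, and with median scaling Lias gave -0.03. With 1 array left out, Lias ranged from -0.04 to 0.13, Spred1 from -0.09 to 0.03, Pop5 from -0.14 to 0.01, Abhd6 from -0.15 to 0.13, Galnt15 from -0.19 to 0.04 and Ppp6r3 from -0.01 to 0.21. Without detection p-values, signals near the array median give no bound on expression.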
